A study of Rattus norvegicus with 8 samples.

Results

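Lymphocyte and monocyte marker mRNAs were examined in plasma exosome RNA of exercised and sedentary rats. The set was a list of 37 gene names for T cells, B cells, natural killer (NK) cells, monocytes and macrophages, and for white blood cells in general. Members were the rows of the expression table that carry one of these names. Of the 37 names, 36 had a row among the 29541 genes of the table, and no row was named Itgam.

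The exercised group was 4 libraries (a to d) from male Sprague Dawley rats that ran on a treadmill for 1 month. On 5 days a week they had a warm-up (10 m/min, 5 min) and then ran at 20 m/min for 30 min. The sedentary group was 4 libraries (a to d) from male Sprague Dawley rats that stayed in the room without running. All rats arrived at 9 to 10 weeks of age, and this cohort received no alpha-synuclein fibrils. Blood was taken by heart puncture into lithium heparin tubes within 30 min of the last exercise, spun to remove cells, and the vesicles were precipitated from 1.5 mL of plasma with a kit. Such a precipitate is not sorted by cell of origin. The labels do not say that each library is 1 rat, so p-values measure the spread between libraries only.

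White blood cells carry surface proteins that define their lineage. T cells read antigen through a receptor that signals by the CD3 chains, and the kinases Lck and Zap70 and the adaptor Lat pass that signal on. B cells signal through CD79A and CD79B, NK cells kill with perforin and granzymes, and monocytes and macrophages sense and engulf through CD14, Fc receptors and scavenger receptors. CD45, the product of Ptprc, is a phosphatase on the surface of nearly all white blood cells and is largely missing from platelets and mature red cells. These cells also shed vesicles, so their mRNAs are looked for in plasma as a sign of where vesicle RNA comes from. In such bulk RNA, more vesicles from a cell type and more RNA per vesicle cannot be told apart.

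Values are transcripts per 1000000 (TPM), in which the reads of a gene are divided by its length and each library is brought to the same total. Whole reads could be recovered from the steps between values. The libraries held 10019947 to 31357153 reads, but 10 abundant RNAs took 99.34 to 99.67% of them. The other genes shared 63919 to 138860 reads per exercised library and 76357 to 139868 per sedentary library. Exercised a and sedentary b had the fewest reads outside the 10 abundant RNAs, 63919 and 76357. Some results that rest on either library, for Ptprc, Lyz2 and sums of members, are also given without both. Reads per 1000000 reads outside these 10 RNAs (RPM) are the other scale used. Over the 7754 genes with at least 10 reads in all, the median log2 ratio of exercised over sedentary means was 0.38 in TPM and -0.08 in RPM. A log2 ratio near these values is that of the typical gene.

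Leukocyte marker mRNAs were scarce in every library. The 36 members held 304 reads in all, 182 in exercised and 122 in sedentary libraries. Of them, 30 had at least 1 read, 22 had 1 to 9 reads, and 8 had at least 10. None reached a mean of 1 TPM over the 8 libraries. Of the 288 member values, 98 were above 0, 3 were above 0.5 TPM and 1 was above 1 TPM. Only Ccr7 had reads in all 8 libraries. The 6 members without a read were Cd8b, Cd2, Il7r, Ms4a1, Prf1 and Klrd1. For each of them 0 of 809666 reads allows up to 3.71 RPM, a limit that covers counting error only.

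Markers of white blood cells stood close to other protein-coding genes in median TPM, but a smaller share of them reached 10 reads. At least 1 read was found for 83.3% of members, beside 76.8% of the 19590 protein-coding genes, and at least 10 reads for 22.2%, beside 35.4%. The median of the mean TPM was 0.0141 for members and 0.0137 for protein-coding genes. The median of total reads was 3 for members and 5 for protein-coding genes. A mean of at least 0.1 TPM was reached by 5.56% of members, beside 11.3% of protein-coding genes. Within libraries, members with a read made up 22.2, 33.3, 38.9 and 36.1% in exercised a to d, against 38.9, 25.0, 30.6 and 47.2% in sedentary a to d. Protein-coding genes with a read made up 23.9 to 44.9% in exercised and 33.9 to 48.8% in sedentary libraries. In each library the members' share was the lower of both.

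**Figure D1:**
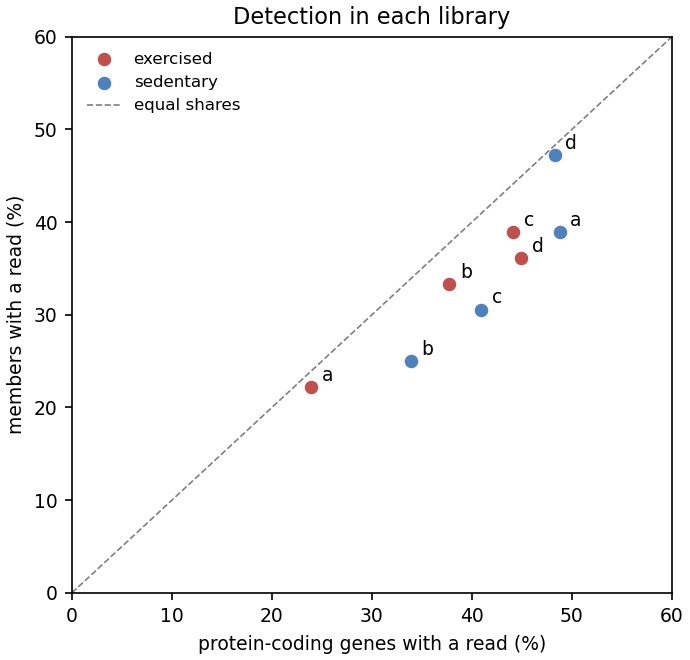
Share of the 36 members with at least 1 read (vertical axis, %) against the share of protein-coding genes with at least 1 read (horizontal axis, %), 1 point per library with its letter. All 8 points lie below the dashed line of equal shares, and exercised a is lowest on both axes.

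The question of the comparison was whether vesicles of exercised rats carried more or less RNA of these cells than vesicles of sedentary rats. By limma on log2(TPM + 1), 0 of 508 genes that averaged 1 TPM or more passed an adjusted p of 0.05 (0% of those tested, 54 at an unadjusted p under 0.05), and no member was abundant enough to be among them. The two-sided exact permutation test over 70 assignments was run for every gene with at least 10 reads. Its smallest possible p is 0.0286. It left 0 of 7754 genes at an adjusted p under 0.05, with 267 at an unadjusted p under 0.05, 1 of them a member. An adjusted p under 0.05 was possible only if most genes tested had stood at the smallest p. Among the 8 members with at least 10 reads, Ptprc alone had groups that did not overlap, and it was higher in exercised libraries. Over all genes tested, the groups did not overlap with exercised higher for 2.14% and with exercised lower for 1.3% in TPM, and for 1.04% and 2.36% in RPM. Among genes with 10 to 100 reads, the range in which Ptprc lies, the exercised group was higher without overlap in TPM for 1.87%. The median log2 ratio in TPM of these 8 members was 0.80, with 6 above 0, and in RPM it was 0.22, with 4 above 0.

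Among the genes shared by many white blood cells, Ptprc stood out. Ptprc (ENSRNOG00000000655) had 6, 18, 19 and 5 reads in exercised a to d, against 0, 0, 2 and 3 in sedentary a to d. Its level was 0.0648, 0.0883, 0.0997 and 0.0262 TPM in exercised libraries, against 0, 0, 0.00650 and 0.0120 TPM in sedentary libraries. The lowest exercised library thus lay above the highest sedentary one, and sedentary a and b had no read. The means were 0.0697 ± 0.0325 TPM in exercised and 0.00463 ± 0.00581 TPM in sedentary libraries (SD, n = 4 each, exact permutation p = 0.0286, adjusted p = 0.830). That is a log2 ratio of 3.91 in TPM and 3.47 in RPM. From 48 exercised and 5 sedentary reads, the ratio of read rates was 10.2, and its exact 95% interval by the binomial method ran from 4.09 to 32.9, for counting error only. Without exercised a and sedentary b the means were 0.0714 ± 0.0396 and 0.00618 ± 0.00602 TPM (n = 3 each). Separated groups cannot come to overlap by leaving libraries out. Leaving out any 1 sedentary library gave an exact permutation p of 0.0571, and leaving out any 1 exercised library gave 0.0286.

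Coro1a, an actin-binding protein of white blood cells, had the most reads of this kind after Ptprc, with no difference beyond the spread. It was at 0, 0.0850, 0.5 and 0.363 TPM in exercised a to d, against 0.124, 0.143, 0.141 and 0.0695 TPM in sedentary a to d. The exercised libraries lay on both sides of the sedentary ones (0.237 ± 0.234 against 0.119 ± 0.0342 TPM, SD, n = 4 each, exact permutation p = 0.400).

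Spi1, the transcription factor PU.1 of myeloid and B cells, had 0, 7, 1 and 2 reads in exercised a to d, against 1, 0, 0 and 2 in sedentary a to d. Its level was 0, 0.233, 0.0357 and 0.0711 TPM in exercised libraries, against 0.0243, 0, 0 and 0.0545 TPM in sedentary libraries. The groups overlapped (exact permutation p = 0.286).

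Tyrobp, the adaptor DAP12 of myeloid and NK receptors, was at 0.286, 0, 0 and 0.277 TPM in exercised a to d, against 0 in every sedentary library. These values rest on 1 read in exercised a and 2 reads in exercised d, so no difference was detectable at this depth. Laptm5, a lysosomal membrane protein of blood cells, had 1 exercised and 5 sedentary reads. Fcer1g, the common gamma chain of Fc receptors, had 1 read, in sedentary d.

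**Figure D2:**
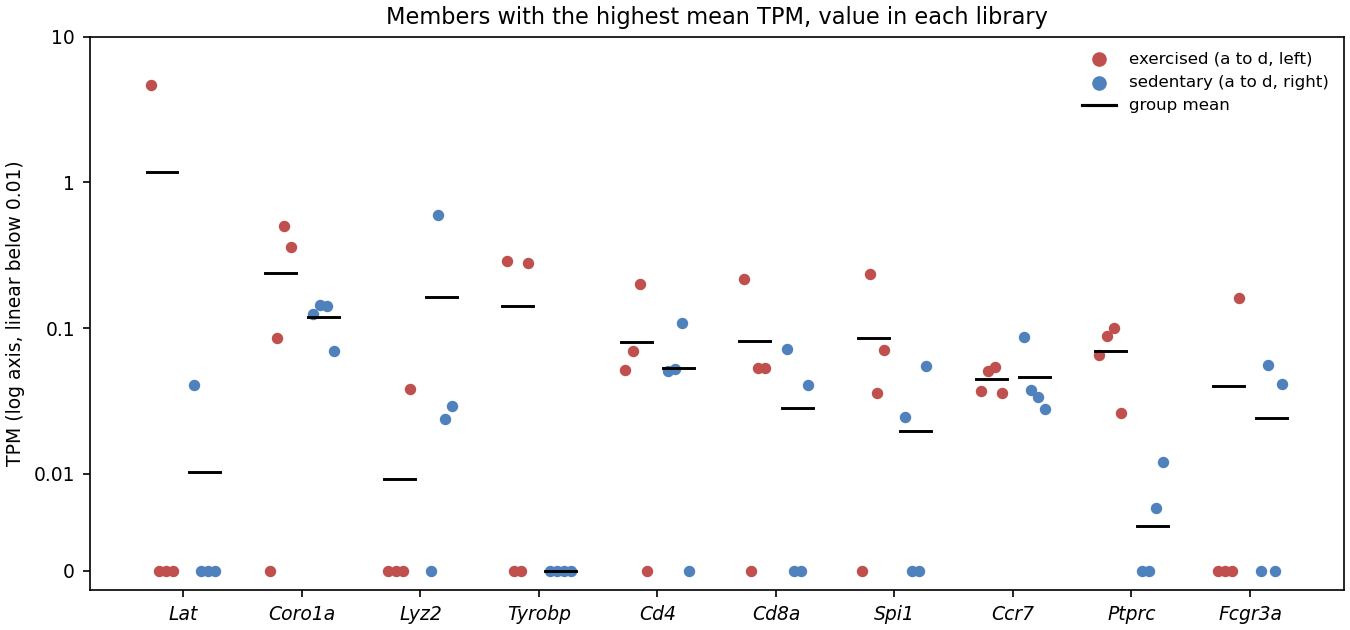
TPM in each library (vertical axis, log scale that is linear below 0.01) of the 10 members with the highest mean TPM, with exercised a to d at the left and sedentary a to d at the right of each gene and a line at each group mean. Lat reaches 4.69 TPM in exercised a alone and Lyz2 0.597 TPM in sedentary b alone, while the exercised and sedentary points of Ptprc do not overlap.

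Summed over the 6 shared leukocyte genes, exercised libraries lay above sedentary ones. The sums were 0.351, 0.430, 0.635 and 0.737 TPM in exercised a to d, against 0.199, 0.169, 0.162 and 0.170 TPM in sedentary a to d. The log2 ratio was 1.62 in TPM and 1.59 in RPM, and the groups did not overlap on either scale. Without Ptprc the other 5 genes had 0.469 ± 0.194 TPM in exercised and 0.170 ± 0.0198 TPM in sedentary libraries (SD, n = 4 each), and the groups still did not overlap. In exercised a these 5 genes had 0.286 TPM from 1 read, of Tyrobp, so the separation in TPM rests on that read. In RPM, where a read counts alike whatever the length of its gene, the other 5 genes had 15.6, 72.0, 116 and 139 RPM in exercised libraries, against 77.2, 52.4, 61.5 and 35.7 RPM in sedentary libraries, and the groups overlapped. The sum therefore held on both scales only with Ptprc in it. No test was made of a sum over members.

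The summed level of 15 platelet genes, 14 of them with reads and Gp1bb without, was 7.03 to 16.1 TPM in exercised and 1.17 to 4.24 TPM in sedentary libraries, and the groups did not overlap. Over all genes tested, 2.14% had groups that did not overlap in TPM with exercised higher. Of the 9 platelet genes with at least 10 reads, 1 did. That gene, Pf4, a chemokine of platelet granules, was at 12.1, 3.31, 6.20 and 5.63 TPM in exercised a to d, against 0.679, 1.51, 1.23 and 2.03 TPM in sedentary a to d. In exercised a, Pf4 made up 12.1 of the 13.2 TPM. Without Pf4 the platelet sums of the groups overlapped in TPM and in RPM. Clec1b, a receptor on platelets, made up 6.51 of the 16.1 TPM in exercised c and had no read in exercised a or d. Neutrophils carry CD45 as well. The summed level of 15 neutrophil genes, 13 of them with reads and Elane and Fpr1 without, was 0, 0.193, 57.5 and 83.8 TPM in exercised a to d, against 1.06, 0.0313, 6.59 and 6.05 TPM in sedentary a to d. Most of the neutrophil sum in exercised c and d came from RatNP-3b, at 49.6 and 47.9 TPM, and Np4, at 6.95 and 31.9 TPM. The part of platelet and neutrophil RNA in the Ptprc difference was not tested.

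**Figure D3:**
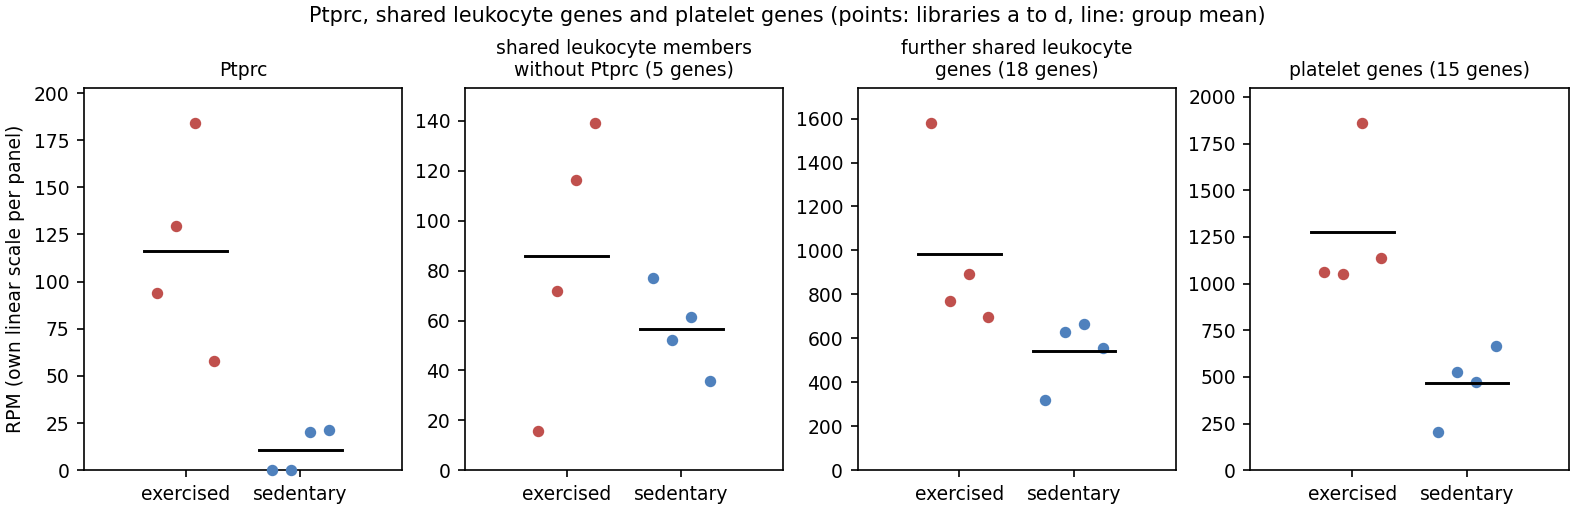
RPM of Ptprc and summed RPM of the other shared leukocyte members, of further shared leukocyte genes and of platelet genes (vertical axes, linear, own scale per panel), with exercised libraries at the left, sedentary libraries at the right and a line at each group mean. The groups do not overlap for Ptprc, for the further shared leukocyte genes and for the platelet genes, and they overlap for the other shared leukocyte members. The further shared leukocyte genes separate only with Fyb1 counted, and the platelet genes only with Pf4 counted.

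T cell mRNAs were at a few reads per library, apart from Lat in exercised a. The 13 T cell members held 112 reads, 10 had at least 1 read and 3 had at least 10. The CD3 chains Cd3d, Cd3e and Cd3g, which define T cells, had 4 reads over all 8 libraries, 2 in exercised and 2 in sedentary libraries. Cd2 and Il7r, an adhesion receptor and the receptor for interleukin 7, had none.

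Lat (ENSRNOG00000017429), the adaptor that links the T cell receptor to its downstream enzymes and is also used by platelets and mast cells, was a matter of 1 library. It had 38 reads in exercised a, which is 4.69 TPM, and none in exercised b to d, against 1 read (0.0409 TPM) in sedentary a and none in sedentary b to d. Exercised a thus held every exercised read of Lat, and Lat made up 85.2% of the summed member TPM of that library. The means were 1.17 ± 2.35 TPM in exercised and 0.0102 ± 0.0205 TPM in sedentary libraries (SD, n = 4 each, exact permutation p = 1). Its partners in T cell signalling were not high there: exercised a had 1 read of Cd3d and no read of Cd3e, Cd3g, Lck or Zap70.

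Cd4, the co-receptor of helper T cells that rat macrophages also carry, had 1, 3, 8 and 0 reads in exercised a to d, against 3, 2, 7 and 0 in sedentary a to d. Its level was 0.0512, 0.0698, 0.199 and 0 TPM in exercised libraries, against 0.0510, 0.0522, 0.108 and 0 TPM in sedentary libraries. Library c was highest in both groups and library d had no read in either (exact permutation p = 0.629).

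Cd8a, the co-receptor of cytotoxic T cells, was at 0.218, 0, 0.0530 and 0.0529 TPM in exercised a to d, against 0.0723, 0, 0 and 0.0405 TPM in sedentary a to d. This rests on 4 exercised and 3 sedentary reads, and Cd8b, the gene of its partner chain, had no read.

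Ccr7, the receptor that guides T cells and dendritic cells to lymph nodes, was the most evenly spread member. It was at 0.0372, 0.0506, 0.0542 and 0.0360 TPM in exercised a to d, against 0.0862, 0.0378, 0.0335 and 0.0276 TPM in sedentary a to d. The means were 0.0445 ± 0.00926 TPM in exercised and 0.0463 ± 0.0269 TPM in sedentary libraries (SD, n = 4 each, exact permutation p = 0.943). The ratio of read rates was 0.684, with an interval of 0.261 to 1.70. Zap70 had 5 exercised and 3 sedentary reads, Lck had 2 and 3, and Cd5, an inhibitory receptor of T cells, had 2 and 0.

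The summed T cell level was 5.11, 0.151, 0.393 and 0.213 TPM in exercised a to d, against 0.305, 0.125, 0.141 and 0.158 TPM in sedentary a to d. With Lat left out the means were 0.294 ± 0.132 TPM in exercised and 0.172 ± 0.0628 TPM in sedentary libraries (SD, n = 4 each), and 94.1 ± 44.3 RPM in exercised against 92.2 ± 42.7 RPM in sedentary libraries. Without Lat the log2 ratio was thus 0.77 in TPM and 0.03 in RPM, against 3.01 and 1.36 with it. Without exercised a and sedentary b, the 13 genes had 99.4 ± 52.6 RPM in exercised and 99.9 ± 55.8 RPM in sedentary libraries (n = 3 each).

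The B cell and NK members had few reads. The 4 B cell members had 12 reads in all, 5 in exercised and 7 in sedentary libraries, and none had 10. Cd22, an inhibitory receptor of B cells, had 8 of these reads. Cd79b and Cd79a, the signalling chains of the B cell receptor, had 3 and 1, and Ms4a1, which encodes CD20, had none. The 4 NK and cytotoxic members had 6 reads. Nkg7, a granule protein, had 3 reads in sedentary c only. Gzmb, which encodes granzyme B, had 2 reads in exercised d and 1 in sedentary d. Prf1, the gene of perforin, and Klrd1, the gene of CD94, had none. At these counts no difference between the groups was detectable for the members of either lineage.

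The monocyte and macrophage members had fewer reads in exercised than in sedentary libraries. All 9 members in the table had at least 1 read, 63 in all, with 18 in exercised and 45 in sedentary libraries. The summed level was 15.6, 64.8, 29.1 and 58.0 RPM in exercised a to d, against 77.2, 210, 92.2 and 85.8 RPM in sedentary a to d, and the groups did not overlap. In sedentary b, Lyz2 made up 196 of the 210 RPM. Without Lyz2 that library lay below exercised b, so the groups overlapped in RPM too. In TPM the sums were 0.0458, 0.176, 0.0696 and 0.214 in exercised libraries, against 0.182, 0.653, 0.107 and 0.302 in sedentary libraries, and the groups overlapped. The log2 ratio was -1.47 in RPM and -1.30 in TPM. Without exercised a and sedentary b it was -0.75 in RPM and -0.36 in TPM, and without Lyz2 it was -0.35 in TPM. No member of this lineage had groups that did not overlap.

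Lyz2 (ENSRNOG00000005825), the lysozyme of macrophages and neutrophils, was carried by sedentary b. It was at 0, 0, 0 and 0.0379 TPM in exercised a to d, against 0, 0.597, 0.0235 and 0.0291 TPM in sedentary a to d. Of its 18 reads, 15 were in sedentary b, where it made up 58.3% of the summed member TPM. The means were 0.00948 ± 0.0190 TPM in exercised and 0.162 ± 0.290 TPM in sedentary libraries (SD, n = 4 each, exact permutation p = 0.371). Without exercised a and sedentary b they were 0.0126 ± 0.0219 TPM in exercised and 0.0175 ± 0.0154 TPM in sedentary libraries (n = 3 each). Cd74, the invariant chain of MHC class II in B cells and other antigen-presenting cells, was high in the same library, with no read in any exercised library, against 1, 19, 0 and 1 reads in sedentary a to d.

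Fcgr3a, an Fc receptor of monocytes and NK cells, was at 0, 0, 0 and 0.160 TPM in exercised a to d, against 0, 0.0561, 0 and 0.0410 TPM in sedentary a to d, from 5 reads. Lyz2 and Fcgr3a have close relatives in the genome, and the sources used here do not give how reads shared by such genes were counted. Mrc1, the mannose receptor of macrophages, had 5 exercised and 7 sedentary reads, with all sedentary reads in library c. Cd14, the co-receptor for bacterial lipopolysaccharide, had 1 exercised read (in c), against 3 in sedentary a and 4 in sedentary d. Csf1r, the receptor for macrophage growth factor, had 3 reads in sedentary d alone. Cd163, a scavenger receptor for haemoglobin, had 4 exercised and 3 sedentary reads. The macrophage genes Adgre1, Cd68 and Aif1 had 5, 3 and 2 reads in all.

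**Figure D4:**
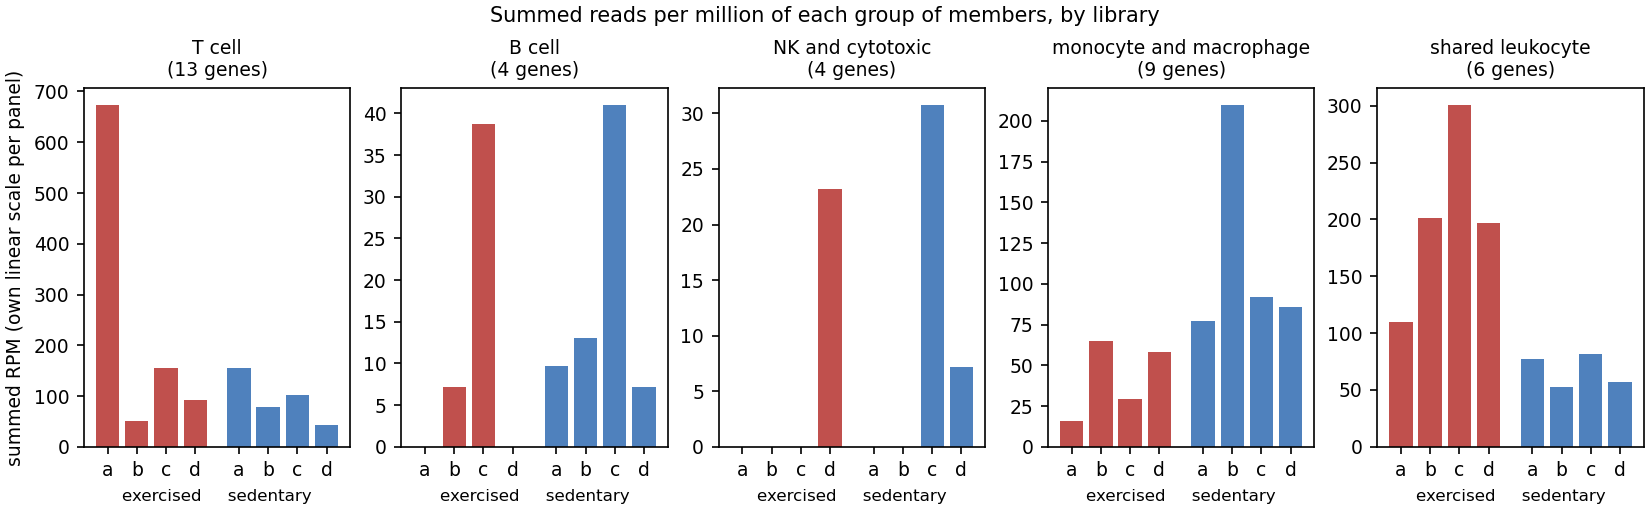
Summed RPM of the members of each lineage in every library (vertical axes from 0, linear, own scale per panel), with exercised a to d as the left bars and sedentary a to d as the right bars. The exercised bars are all higher than the sedentary bars for the shared leukocyte genes. For the monocyte and macrophage genes they are all lower, but only with Lyz2 counted. The T cell panel is led by exercised a.

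Over all 36 members the summed level was 5.51, 0.776, 1.20 and 1.19 TPM in exercised a to d, against 0.700, 1.02, 0.640 and 0.657 TPM in sedentary a to d. The groups overlapped, since sedentary b lay above exercised b. The means were 2.17 ± 2.23 TPM in exercised and 0.755 ± 0.181 TPM in sedentary libraries (SD, n = 4 each), a log2 ratio of 1.52. It was 0.49 without exercised a, and 0.67 without both exercised a and sedentary b, where the groups no longer overlapped. Without Lat and Lyz2, which 1 library each carried, the sums were 0.987 ± 0.223 TPM in exercised and 0.582 ± 0.105 TPM in sedentary libraries and no longer overlapped, a log2 ratio of 0.76. In RPM the same genes had 353 ± 132 in exercised and 249 ± 87.7 in sedentary libraries and overlapped. With Ptprc left out too, they had 0.917 ± 0.231 TPM in exercised and 0.578 ± 0.103 TPM in sedentary libraries, and the groups did not overlap. In RPM these genes without Ptprc had 236 ± 104 in exercised and 239 ± 86.2 in sedentary libraries and overlapped. Ptprc made up 26.4% of the member reads in exercised and 4.10% in sedentary libraries.

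Further genes of the same cells were looked at in the same way, from lists that hold no member. Of 13 more T cell genes, 11 had reads and 4 had at least 10. Of these 4, Bcl11b alone had groups that did not overlap. Over all genes tested, 2.14% had exercised higher without overlap in TPM. Bcl11b, a transcription factor of T cells that neurons and skin also use, was at 0.103, 0.0655, 0.0401 and 0.120 TPM in exercised a to d, against 0.0273, 0.0210, 0.0186 and 0 TPM in sedentary a to d (exact permutation p = 0.0286, adjusted p = 0.830). Tcf7, a transcription factor of T cells, had the highest mean TPM of this list, at 0.0954 ± 0.0960 TPM in exercised and 0.0878 ± 0.0663 TPM in sedentary libraries (SD, n = 4 each), and its groups overlapped (exact permutation p = 0.971).

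Of 13 more B cell genes, 11 had reads, 131 in all, and 4 had at least 10. Ebf1, a transcription factor of B cells that fat and stromal cells also use, had 13, 12, 9 and 5 reads in exercised a to d, against 0, 0, 1 and 0 in sedentary a to d. Its level was 0.273 ± 0.201 TPM in exercised and 0.00326 ± 0.00651 TPM in sedentary libraries (SD, n = 4 each, exact permutation p = 0.0286, adjusted p = 0.830). The groups of the other 3 genes with at least 10 reads overlapped in TPM. In RPM 1 of them, RT1-Bb, a chain of MHC class II, was lower without overlap in exercised libraries. Over all genes tested, 2.36% were lower without overlap in RPM, and 2.14% were higher without overlap in TPM, as Ebf1 was. Of 8 more NK and cytotoxic genes, 6 had reads, 122 in all, 2 had at least 10 and none separated the groups. Klrb1, an NK cell receptor of a large gene family, was the most abundant of them, at 0.733 ± 0.684 TPM in exercised and 0.980 ± 0.482 TPM in sedentary libraries (SD, n = 4 each, exact permutation p = 0.543). Of 16 more monocyte and macrophage genes, 12 had reads, 4 had at least 10 and none separated the groups. Unlike that of the members, their sum was not lower in exercised libraries, at 0.846 ± 0.544 TPM in exercised and 0.570 ± 0.261 TPM in sedentary libraries (SD, n = 4 each), and 174 ± 83.1 RPM in exercised and 167 ± 56.5 RPM in sedentary libraries, and the groups overlapped on both scales.

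Of 18 further genes shared by many white blood cells, 17 had reads and 13 had at least 10. Of these 13, 2 had groups that did not overlap, both higher in exercised libraries, on both scales. Over all genes tested, the share with exercised higher without overlap was 2.14% in TPM and 1.04% in RPM. Fyb1, an adaptor of T cells and platelets, was at 1.09, 1.03, 0.493 and 0.227 TPM in exercised a to d, against 0.0517, 0.179, 0.106 and 0.116 TPM in sedentary a to d. Lsp1, an actin-binding protein of white blood cells, was at 0.933, 0.0771, 0.268 and 0.103 TPM in exercised a to d, against 0.0281, 0.0432, 0.0128 and 0.0315 TPM in sedentary a to d. For both genes the exact permutation p was 0.0286 and the adjusted p 0.830. The sum of the 18 genes was 2.46 ± 1.15 TPM in exercised and 1.05 ± 0.449 TPM in sedentary libraries (SD, n = 4 each). The groups overlapped in TPM but not in RPM. Fyb1 held 154 of the 584 reads of these genes, and without Fyb1 the groups overlapped in RPM too.

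Erythroid, liver, neutrophil and platelet lists had higher mean summed levels than the leukocyte members. In summed TPM, 10 erythroid genes had 67.7 ± 46.0 in exercised and 34.2 ± 28.9 in sedentary libraries (SD, n = 4 each), and 12 liver genes had 19.8 ± 25.8 in exercised and 49.9 ± 31.8 in sedentary libraries. The 15 neutrophil genes had 35.4 ± 42.1 TPM in exercised and 3.43 ± 3.36 TPM in sedentary libraries, and the 15 platelet genes had 10.8 ± 4.52 TPM in exercised and 2.48 ± 1.31 TPM in sedentary libraries. By group mean, the 36 leukocyte members had 2.17 TPM in exercised and 0.755 TPM in sedentary libraries. In both groups this lay below each of these lists. It lay above the 10 endothelial genes, at 0.681 ± 0.468 TPM in exercised and 0.542 ± 0.110 TPM in sedentary libraries. The order differed in some libraries. The neutrophil list was at 0, 0.193 and 0.0313 TPM in exercised a, exercised b and sedentary b. The members there were at 5.51, 0.776 and 1.02 TPM. In exercised d the liver list was at 0.510 TPM and the members at 1.19 TPM. In RPM the members lay below the endothelial genes in both groups, at 504.1 against 538 RPM in exercised and 305 against 673 RPM in sedentary libraries.

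**Figure D5:**
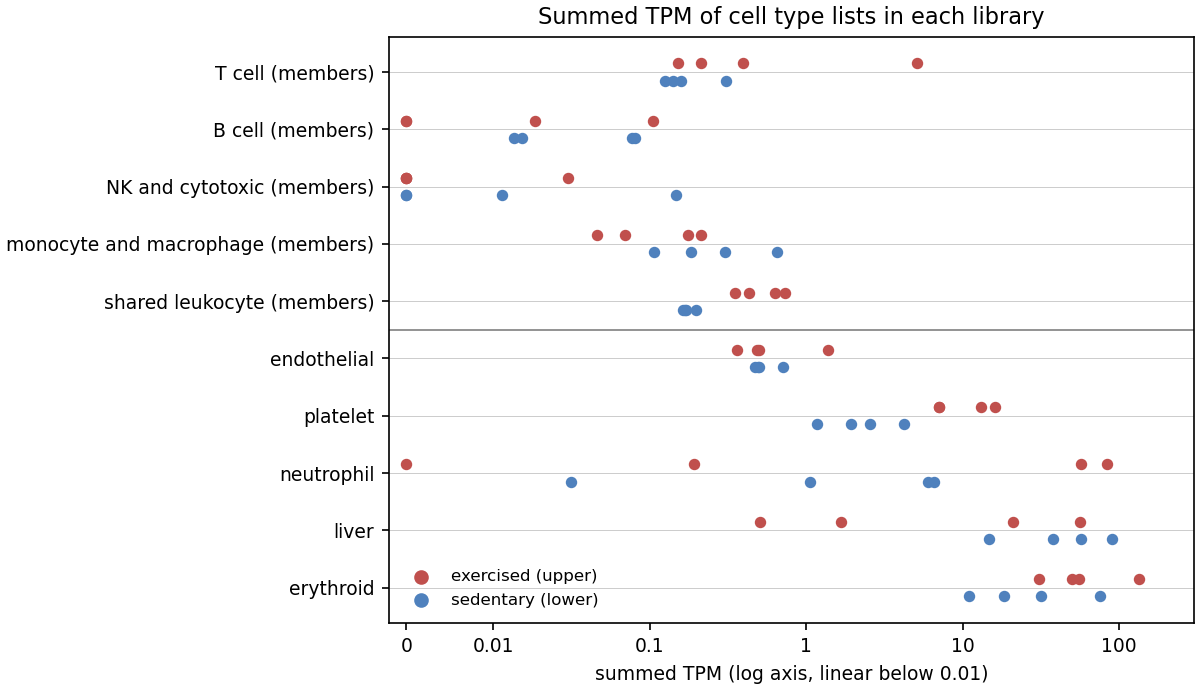
Summed TPM of the 5 groups of members (above the line) and of 5 lists for other cells (below it) in each library (horizontal axis, log scale that is linear below 0.01), with exercised libraries in the upper and sedentary libraries in the lower row of points. Erythroid genes reach the highest sum, and the B cell and NK sums do not pass 0.148 TPM in any library.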

How the data were processed

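Plasma exosome RNA was sequenced from 8 libraries, 4 per group, from 1 ng of RNA each with a stranded total RNA kit. The authors deposited TPM for 29541 genes on rat build mRatBN7.2 (submitters' processing notes). The sources used here do not give the aligner, counter, annotation, strand or duplicate handling. At a tolerance of 1e-06, 71860 of 71860 values above 0 were whole multiples of the value of 1 read. The smallest whole numbers that also gave a whole gene length were taken as reads, and true reads could be a multiple of them. Protein-coding genes were named by RefSeq for assembly GRCr8, with no coordinates used. Genes that averaged 1 TPM or more were compared with limma 3.58.1 in R 4.3.3 (trend, Benjamini-Hochberg adjustment) on log2(TPM + 1), and genes with at least 10 reads with two-sided exact permutation tests of mean TPM, adjusted over all 7754. Both steps were tested on simulated data. Binomial intervals are exact (95%), and a count of 0 was set at a floor of 3 reads. Alternatives were other scalings, filters and pseudocounts, voom on the reads, a block by letter and leaving out libraries. Every member is accounted for, with values per library for the 10 with the highest mean TPM, and for those tested by limma or with at least 10 reads and groups that do not overlap. Of the other lists, the 2 genes with the highest mean TPM and any whose groups do not overlap could be named, and RT1-Bb was named after its values were seen. Members and lists were chosen with earlier results of these data known.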

Additional observations from a re-analysis of the deposited data

Results flagged for a closer look

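In 14 measures (8 members with at least 10 reads and 6 sums), a library lay far from the other 3 of its group in 10 of the 28 groups checked. In 5 of the 10 the other 3 libraries were at 0, where a single read is enough, so the chance rate of about 1 in 20 groups does not apply to such counts. The measures share reads, so these are not independent. Lat was at 4.69 TPM in exercised a, with the summed T cell members at 5.11 TPM and all members at 5.51 TPM in the same library. In the sedentary group Lat was at 0.0409 TPM in library a, from 1 read. Lyz2 was at 0.0379 TPM in exercised d, from 1 read, and at 0.597 TPM in sedentary b, where all members summed to 1.02 TPM. Mrc1 was at 0.0606 TPM in sedentary c. The summed NK and cytotoxic members were at 0.0298 TPM in exercised d and at 0.148 TPM in sedentary c, from 2 and 3 reads. Exercised a and sedentary b are also the libraries with the fewest reads outside the 10 abundant RNAs, and the part of depth in these values was not tested.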

How the results depend on the processing

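No member passed an adjusted p of 0.05 by limma or by the exact permutation test under any alternative run. Limma tested 2 members with the filter at a mean of 0.1 TPM, 30 with no filter beyond 1 read, 8 by voom and no member otherwise. The exact permutation test could pass a gene at best if most genes tested had stood at its smallest possible p. Over all genes, limma called 1, not a member, without sedentary a and 0 in every other setting. Ptprc had groups that did not overlap in all 13 alternatives of that count. Leaving out libraries, other read minima and the log scale cannot make separated groups overlap. Among these alternatives only RPM could have changed that result. By voom on the recovered reads, Ptprc had a log2 fold change of 3.18 (standard error 0.856, adjusted p = 0.260). Its exact permutation p was 0.125, the smallest possible, with libraries paired by letter as a replicate block, and 0.1, also the smallest possible, without exercised a and sedentary b. The labels do not say whether letters pair the libraries. Same-letter correlations of deviations were -0.18, -0.005, -0.26 and -0.17, too few to settle it. The paired values are therefore given here only. The block gave a log2 ratio of summed member TPM of 1.09, against 1.52 without it, and changed no limma call. That ratio ran from 0.49 (without exercised a) to 1.80 over libraries left out in turn, and was 0.72 in RPM, 0.42 without Lat and 0.67 without exercised a and sedentary b. It was 1.49 without the shared leukocyte genes. The T cell sum fell to a log2 ratio of 0.47 without exercised a, the B cell sum was at 0.17 without exercised a and sedentary b, against -0.59, and the NK sum at 1.38 without Nkg7, against -2.42. The shared leukocyte sum was at 0.999 without the 10 abundant RNAs and at 2.44 without Coro1a. B cell and NK sums have libraries at 0, so their paired ratio could not be computed. Settings with 2 libraries, Lat, Lyz2 or Ptprc left out, the lower filter with the lower pseudocount, and the count of groups that do not overlap under other settings were chosen after seeing the data. Depth limits most of these values: 22 of the 30 members with reads had fewer than 10.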
